A study of Mus musculus with 8 samples.

Results

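The core circadian clock genes examined here were Per1, Per2, Per3, Cry1, Cry2, Arntl, Clock, Nr1d1, Nr1d2 and Dbp, 10 of the 21883 protein-coding genes of the GRCm38 annotation. They were taken as a named set, and every peak of phosphorylated CREB1 was listed whose summit lay inside the span of a gene or within 10000 bp of it. CREB1 is a transcription factor of the cAMP pathway, and kinases such as protein kinase A activate it by phosphorylation. The series mapped its phosphorylated form by chromatin immunoprecipitation and sequencing (ChIP-seq) in skeletal muscle, and its title concerns cAMP signaling through CREB1 in the muscle wasting of cancer (cachexia).

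The C26 group consisted of tumor-bearing animals, male Balb/c mice given C26 colon adenocarcinoma cells under the skin at 2 months of age. The C26 group was set against mice without tumor cells (CTRL), whose sex, strain and age the labels do not give separately. Each group had 2 phospho-CREB1 libraries, and the other 4 of the 8 samples were input chromatin. C26 animals are described as having received rolipram, an inhibitor of phosphodiesterase 4 (3 mg/kg), or vehicle from day 4 after injection, without a statement of which agent the animals profiled here had. The labels name the gastrocnemius as the tissue and the extraction protocol the quadriceps, and that protocol mentions antibodies to CREB or phospho-CREB1 where the sample titles give the phosphorylated form. Animals were kept under a 12-hour light-dark cycle. The time of day at which muscle was taken, which matters for clock genes, is not given in the sources used here, and its part in the results was not tested. Whether the replicates came from separate animals is not stated either, so a p-value measures only the spread between libraries, which may be technical. Muscle was profiled in bulk, where fewer bound cells and less binding per cell cannot be told apart.

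The clock is a feedback loop of transcription that runs in most cells, skeletal muscle included. Arntl (also called Bmal1) and Clock form the activating pair, which binds E-boxes in the Per and Cry genes, and the PER and CRY proteins in turn repress that pair. Nr1d1 and Nr1d2 (REV-ERB alpha and beta) repress Arntl and close the second loop, while Dbp drives output genes through D-boxes. CREB1 is known as a route by which outside signals reach this loop, since cAMP and calcium signals induce Per1 through it.

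The C26 lists held 7482 (replicate 1) and 4051 peaks (replicate 2), and the CTRL lists 10835 and 14975 peaks. Each list was called by the authors on 1 library against its input. Read depth is unknown, so a gene without a peak is one where no peak passed the authors' threshold in that library. Fold enrichment over input and −log10 q are the authors' values for each peak on a scale set by its own library. Peak strength is therefore given as a rank inside 1 list, the percentile by −log10 q, where 100 is the strongest peak. Because the lists differ in length, percentiles describe the order within 1 list and show no change between lists. Of 10 skeletal muscle markers, 2 had a peak within 1000 bp of a start in both C26 libraries and 5 in both CTRL libraries, against 13.4% and 33.6% of all protein-coding genes. None of 4 endothelial, 4 fibroblast and 4 leukocyte markers had one in both libraries of either group, and 1 endothelial and 1 fibroblast marker had one in at least 1 library. These short lists were not tested against those shares, and a peak is not a measure of expression.

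Promoter sequences are shown here for clock genes with the core letters of a cAMP response element (Per1, Cry1 and Cry2) and for clock genes with a start peak in every library and no such letters (Per3, Arntl, Nr1d2 and Dbp). The core was in 30.8% of the clock gene stretches, against 23.6% of all promoters and 58.9% of the promoters with a start peak in all 4 libraries, a share nearer to that of all promoters. They cover 250 bases before to 50 bases from each transcription start in RefSeq's GRCm38.p6 annotation, 5′ to 3′ on the strand of the gene. Capitals mark the core of the cAMP response element (TGACG or its complement CGTCA), the E-box (CACGTG) and the D-box (TTATGTAA).
Per1 first start (chr11:69098699-69098998, plus strand): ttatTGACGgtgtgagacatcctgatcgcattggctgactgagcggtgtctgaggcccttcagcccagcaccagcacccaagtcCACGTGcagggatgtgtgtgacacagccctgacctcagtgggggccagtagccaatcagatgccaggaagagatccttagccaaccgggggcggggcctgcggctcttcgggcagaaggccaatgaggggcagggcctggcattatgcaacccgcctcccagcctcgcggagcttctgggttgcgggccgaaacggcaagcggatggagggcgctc
Per1 second start (chr11:69099902-69100201, plus strand): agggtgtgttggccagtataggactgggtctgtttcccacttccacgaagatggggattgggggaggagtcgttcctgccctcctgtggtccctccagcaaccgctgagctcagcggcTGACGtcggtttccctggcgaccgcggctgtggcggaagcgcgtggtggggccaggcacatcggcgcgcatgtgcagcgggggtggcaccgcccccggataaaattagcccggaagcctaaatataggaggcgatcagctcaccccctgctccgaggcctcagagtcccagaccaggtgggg
Cry1 (chr10:85185005-85185304, minus strand): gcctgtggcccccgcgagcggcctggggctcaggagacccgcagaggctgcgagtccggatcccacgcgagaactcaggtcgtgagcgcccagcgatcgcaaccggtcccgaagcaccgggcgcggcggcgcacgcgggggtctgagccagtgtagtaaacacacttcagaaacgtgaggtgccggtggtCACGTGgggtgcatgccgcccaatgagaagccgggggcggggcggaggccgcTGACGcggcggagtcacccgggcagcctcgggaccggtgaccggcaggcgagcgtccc
Cry2 (chr2:92434020-92434319, minus strand): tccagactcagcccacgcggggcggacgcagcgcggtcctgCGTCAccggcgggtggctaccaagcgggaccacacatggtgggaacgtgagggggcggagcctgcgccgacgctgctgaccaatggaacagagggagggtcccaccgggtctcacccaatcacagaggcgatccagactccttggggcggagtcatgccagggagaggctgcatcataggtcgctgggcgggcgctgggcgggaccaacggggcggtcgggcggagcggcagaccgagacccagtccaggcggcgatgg
Per3 (chr4:151044616-151044915, minus strand): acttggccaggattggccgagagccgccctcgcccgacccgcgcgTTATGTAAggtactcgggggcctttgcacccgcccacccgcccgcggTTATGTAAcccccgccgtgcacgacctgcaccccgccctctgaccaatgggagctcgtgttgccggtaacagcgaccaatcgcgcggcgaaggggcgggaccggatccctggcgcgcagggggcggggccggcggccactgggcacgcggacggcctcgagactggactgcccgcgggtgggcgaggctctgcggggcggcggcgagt
Arntl first start (chr7:113207215-113207514, plus strand): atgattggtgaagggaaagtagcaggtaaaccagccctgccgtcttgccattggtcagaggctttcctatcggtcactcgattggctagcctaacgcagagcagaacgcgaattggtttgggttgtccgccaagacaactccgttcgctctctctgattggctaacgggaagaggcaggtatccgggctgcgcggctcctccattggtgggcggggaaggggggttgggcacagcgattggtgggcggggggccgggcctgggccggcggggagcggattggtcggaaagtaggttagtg
Nr1d2 (chr14:18239057-18239356, minus strand): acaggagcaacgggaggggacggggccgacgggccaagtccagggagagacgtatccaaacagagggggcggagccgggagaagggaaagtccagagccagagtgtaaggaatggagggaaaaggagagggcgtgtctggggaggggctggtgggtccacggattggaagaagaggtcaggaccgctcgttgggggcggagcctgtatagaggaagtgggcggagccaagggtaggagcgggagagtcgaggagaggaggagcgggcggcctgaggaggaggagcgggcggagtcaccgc
Dbp (chr7:45704997-45705296, plus strand): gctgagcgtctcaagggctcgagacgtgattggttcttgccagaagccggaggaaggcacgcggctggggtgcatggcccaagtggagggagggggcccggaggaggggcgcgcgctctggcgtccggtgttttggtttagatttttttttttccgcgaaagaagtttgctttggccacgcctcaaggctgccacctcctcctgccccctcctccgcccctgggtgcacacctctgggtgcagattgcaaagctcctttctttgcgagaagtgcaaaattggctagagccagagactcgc

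Phospho-CREB1 peaks were found at nearly all clock genes in both groups. Of the 10 genes, 9 and 8 had a peak inside the span or within 10000 bp in C26 replicates 1 and 2, against 37.8% and 22.8% of all protein-coding genes. In CTRL replicates 1 and 2 the counts were 9 and 10 of the 10, against 47.3% and 53.8%. Such a peak was present in both C26 libraries at 8 of the 10 genes, against 21.1% of all protein-coding genes, and in both CTRL libraries at 9 of the 10, against 45.4%. It was present in all 4 libraries at 8 of the 10, against 20.8%. The windows of the clock genes were longer, with a median of 59213 bp, than those of all protein-coding genes, at 37170 bp. At the starts themselves (summit within 1000 bp), C26 replicates 1 and 2 had peaks at 9 and 7 of the 10 genes, with backgrounds of 27% and 14.4%, and CTRL replicates 1 and 2 at 9 and 10, with backgrounds of 35.3% and 41.8%. Start peaks were present in both C26 libraries at 7 of the 10 genes, against 13.4% of all genes. In both CTRL libraries they were present at 9 of the 10, against 33.6%. Per1, Per2, Per3, Cry1, Arntl, Nr1d2 and Dbp had a start peak in all 4 libraries, 7 of 10 genes against 13.1% of all genes. The genes were named with earlier results on these data known, so these counts are a description and carry no test. Starts were given for 9 of the 10 genes. Per2 had none, and a summit within 1000 bp of either end of its span stood for a start peak, as for all genes without a listed start.

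**Figure D1:**
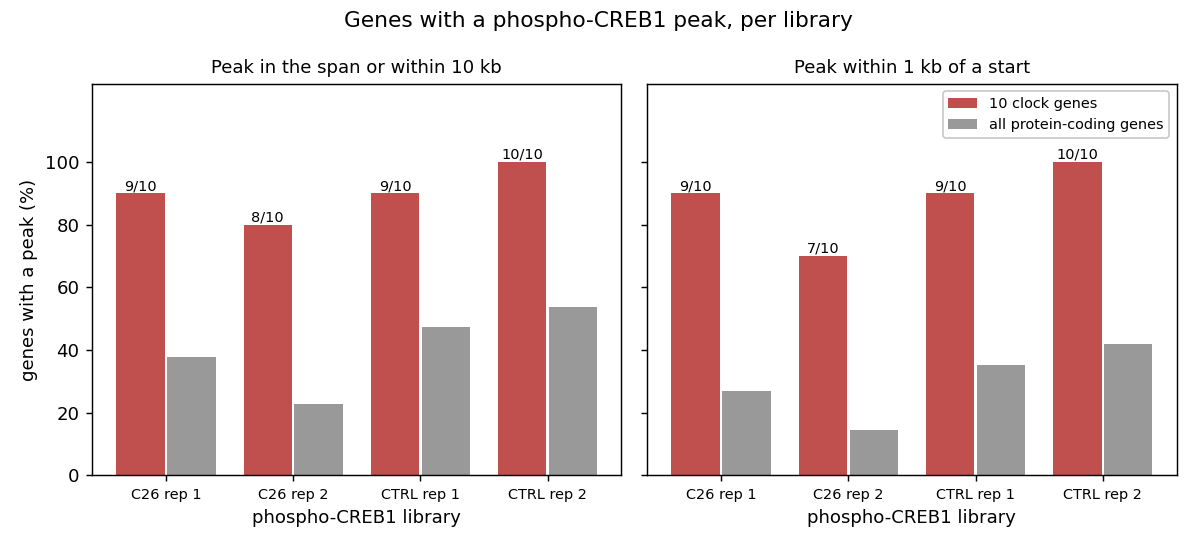
Percentage of genes with a phospho-CREB1 peak in each library (vertical axis), for the 10 clock genes (red, count above the bar) and all 21883 protein-coding genes (grey), with the wide window on the left and the start window on the right. The clock genes reach 7 to 10 of 10 in every library, the lowest being the start peaks of C26 replicate 2.

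No clock gene separated the groups by presence of a peak, but few of all genes did so, and 0 of 10 is near their shares. With the window of 10000 bp, 0 of the 10 genes had a peak in both CTRL and neither C26 library, against 8.72% of all genes, and 0 had the reverse, against 0.0366%. A start peak in both CTRL and neither C26 library was found at 0 of the 10 genes, with a background of 7.81% of all genes, and the reverse at 0 of 10, with a background of 0.00914%. Cry2 and Nr1d1 had a start peak in both CTRL libraries and in C26 replicate 1 but not in C26 replicate 2, the shortest list. Clock had a start peak in CTRL replicate 2 only, the longest list. Without C26 replicate 2, C26 replicate 1 alone had a start peak at 9 of the 10 genes, against 27% of all genes. Both CTRL libraries had one at 9 of the 10, against 33.6%. These counts are not alike, since the C26 count then rests on 1 library and the CTRL count on both.

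The number of peaks assigned to the clock genes overlapped between the groups, and the direction of the difference depended on the length of the lists. The C26 libraries had 25 and 17 such peaks and the CTRL libraries 24 and 34, in replicates 1 and 2. The mean was 21 ± 5.66 in C26 and 29 ± 7.07 in CTRL muscle (SD, n = 2 each), and the difference of the means was −8 peaks (two-sided exact permutation p = 0.667, where the smallest possible with 2 libraries against 2 is 0.333). As a share of each list, these peaks were 0.334% and 0.420% in C26 replicates 1 and 2 and 0.222% and 0.227% in CTRL replicates 1 and 2. These shares did not overlap and were higher in C26, with means of 0.377 ± 0.0605% in C26 and 0.224 ± 0.00392% in CTRL muscle (SD, n = 2 each, exact permutation p = 0.333, the smallest possible). The share of each list within 1000 bp of any protein-coding start was also higher in C26 without overlap. It was 70.8% and 67.3% in C26 replicates 1 and 2 and 65.3% and 57.4% in CTRL replicates 1 and 2. Both shares were higher in C26, but they are unlike measures, 1 from the window of 10000 bp and 1 from starts. Whether the clock gene share differed more between the groups than the share at all starts was not tested. Among the top 4051 peaks of every list, the counts were 15 and 17 in the C26 libraries and 16 and 17 in the CTRL libraries. The share of clock gene peaks in each list was added after the data had been seen. A clock gene had the nearest protein-coding start (or span end where no start is listed) for 18 of 25 peaks in C26 replicate 1 and 13 of 17 in C26 replicate 2. In CTRL replicates 1 and 2 this held for 15 of 24 and 22 of 34. The other peaks lay nearer to another gene, so the counts, shares and tests above include binding at neighboring genes.

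The peaks of the 4 lists merged into 36 regions at the clock genes wherever peaks overlapped by at least 1 bp. Of these 36 regions, 15 were shared by the 4 libraries, against 16.9% of all 17607 regions of the genome. The C26 libraries had peaks at 23 and 15 of them, with backgrounds of 42% and 22.8%, and the CTRL libraries at 23 and 33, with backgrounds of 60.8% and 84.7%. Both C26 libraries had a peak at 15 regions, against 18.1%, and both CTRL libraries at 21, against 51%. A further 4 regions lacked a peak in C26 replicate 2 alone, against 16.6% of all regions. Of the 12 regions with a peak in 1 library, against 42.7% of all regions, 9 were in CTRL replicate 2, 2 in CTRL replicate 1 and 1 in C26 replicate 1. CTRL replicate 2 had the longest list. How the single-library regions of the whole genome split between libraries is not given here, so this split is not a trait of the clock genes. Presence in CTRL muscle alone, in both of its libraries, was seen at 2 regions, against 15.7% of all regions, and presence in both C26 libraries alone at 0 of 36, against 0.375%. With every list trimmed to the 4051 peaks of the shortest, 0 of 18 regions were in CTRL alone (background 4.05%) and 1 of 18 in C26 alone (background 2.7%). Counts this small, near their backgrounds, give no direction. Dropping C26 replicate 1 gave 6 of 35 CTRL-only regions (background 33.3%) and dropping C26 replicate 2 gave 2 of 36 (17.8%). Dropping CTRL replicate 1 gave 11 of 35 (49.2%) and dropping CTRL replicate 2 gave 5 of 28 (34.4%). The number seen in C26 muscle alone was 1 of 36 after dropping C26 replicate 2 (background 3.65%). It was 0 after dropping C26 replicate 1, CTRL replicate 1 or CTRL replicate 2, with backgrounds of 2.3%, 0.643% and 1.29%. Of the 21 regions with a peak in both CTRL libraries, 2 had no C26 peak, compared with 30.8% of such regions genome-wide.

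**Figure D2:**
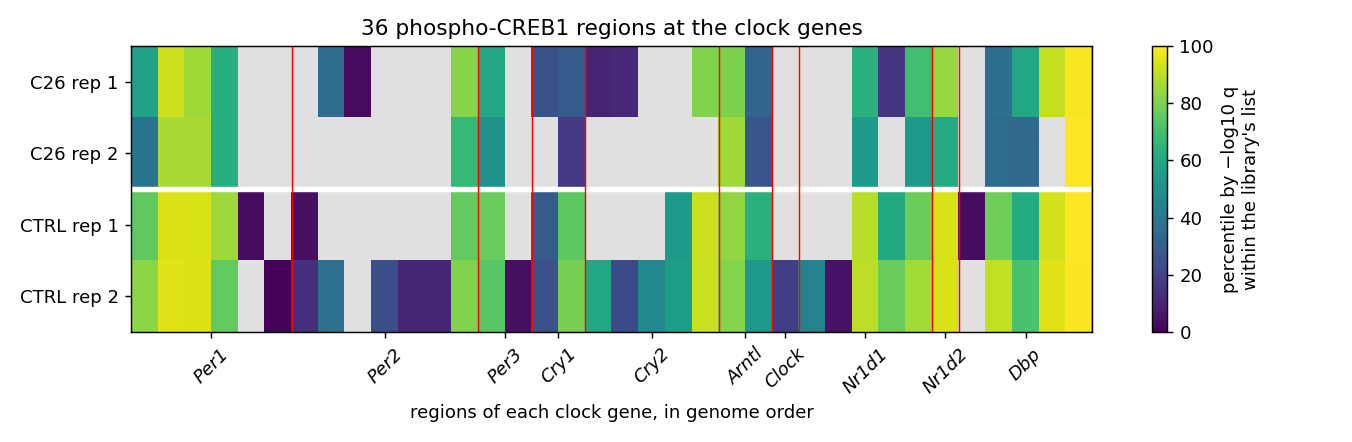
Percentile by −log10 q of the strongest peak in each of the 36 regions (columns, grouped by gene between red lines, in genome order) in each library (rows, C26 above CTRL), where grey marks no peak. The regions filled in all 4 rows lie at Per1, Per2, Per3, Cry1, Arntl, Nr1d1, Nr1d2 and Dbp, and most regions filled in a single row are in CTRL replicate 2, the longest list.

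Several clock genes carried more than 1 region bound in every library. Regions with a peak in all 4 libraries numbered 4 at Per1, 3 at Dbp, 2 at Arntl and 2 at Nr1d1, and 1 each at Per2, Per3, Cry1 and Nr1d2. At least 2 such regions were found at 4 of the 10 genes, against 2.39% of all protein-coding genes, and at least 3 at 2 of the 10, against 0.242%. This count was chosen after the regions had been seen. With lists trimmed to the length of the shortest, at least 2 such regions were found at 2 of the 10 genes. The share of all genes for trimmed lists is not given here, and 2.39% belongs to the full lists. One of the regions of Per1 lay at the end of Vamp2 and one of those of Dbp at the upper end of Sphk2, so the windows took in binding at neighboring genes.

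Among the repressors of the loop, Per1, the PER gene most directly induced by cAMP, had a row of binding regions upstream of its listed starts. The region strongest in 3 of the 4 lists (chromosome 11, 69094542 to 69095654) had its summits 3888 to 4016 bp before the first listed start. Its fold enrichment was 15.5 and 13.2 in C26 replicates 1 and 2, and 26.8 and 30.1 in CTRL replicates 1 and 2. It stood at percentiles 92.5 and 86.9 of the C26 lists and 94.7 and 95.3 of the CTRL lists, in the upper part of every list. It lies at the lower end of the Per1 span of the annotation, with summits at −175 to −47 bp from that end. Per1 is on the plus strand, so this is the 5′ end of its span, which reaches 3841 bp beyond the first listed start. The region is 2552 to 2680 bp from the end of Vamp2, a vesicle fusion gene.

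The next region of Per1 (chromosome 11, 69096754 to 69097831) had its summits inside the span, 1750 to 1825 bp before the first listed start. Its enrichment was 7.65- and 14.0-fold in C26 replicates 1 and 2 and 23.5- and 24.7-fold in CTRL replicates 1 and 2, at percentiles 85.6 and 87.0 (C26) and 94.5 and 94.8 (CTRL). In C26 replicate 2 these upstream regions were close in strength, at percentiles 86.9 and 87.0. In every list both ranked above the peak at the starts.

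The region over the starts of Per1 (chromosome 11, 69098341 to 69100329) took in both listed starts, which lie 1203 bp apart. In CTRL libraries it was a single peak of 1801 bp (replicate 1, 13.6-fold) and 1874 bp (replicate 2, 11.7-fold). C26 replicate 1 had separate peaks at the 2 starts (6.23- and 5.98-fold, summits 142 and 117 bp before the first and second start), and C26 replicate 2 had 1 peak of 871 bp (8.26-fold) with its summit between the starts. The second start holds TGACG beginning 132 bases before it, and the summits of C26 replicate 1 and CTRL replicate 1 fell 117 and 119 bp before that start. The first start holds TGACG at 246 bases and an E-box at 166 bases before it, with the nearby summits of C26 replicate 1 and CTRL replicate 2 at 142 and 155 bp.

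The farthest region shared by all libraries in the Per1 window (chromosome 11, 69088122 to 69089040) had its summits 9 to 88 bp from an end of Vamp2. Weak peaks past the other end of Per1 lay near tRNA genes. One in CTRL replicate 1 (3.72-fold) had its summit 71 bp from the end of n-TScga3 and one in CTRL replicate 2 (3.53-fold) 973 bp from n-TGgcc5. Both were among the weakest of their lists, at percentiles 3.30 and 1.13.

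The genes whose strongest start peak ranked most like that of Per1 across the 4 lists were Tmtc4, Pwwp2a and Trim41. Their percentiles differed from those of Per1 by a root mean square of 1.89, 3.33 and 3.45 points over 4 libraries, among 2869 other genes with a start peak in every library.

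**Figure D3:**
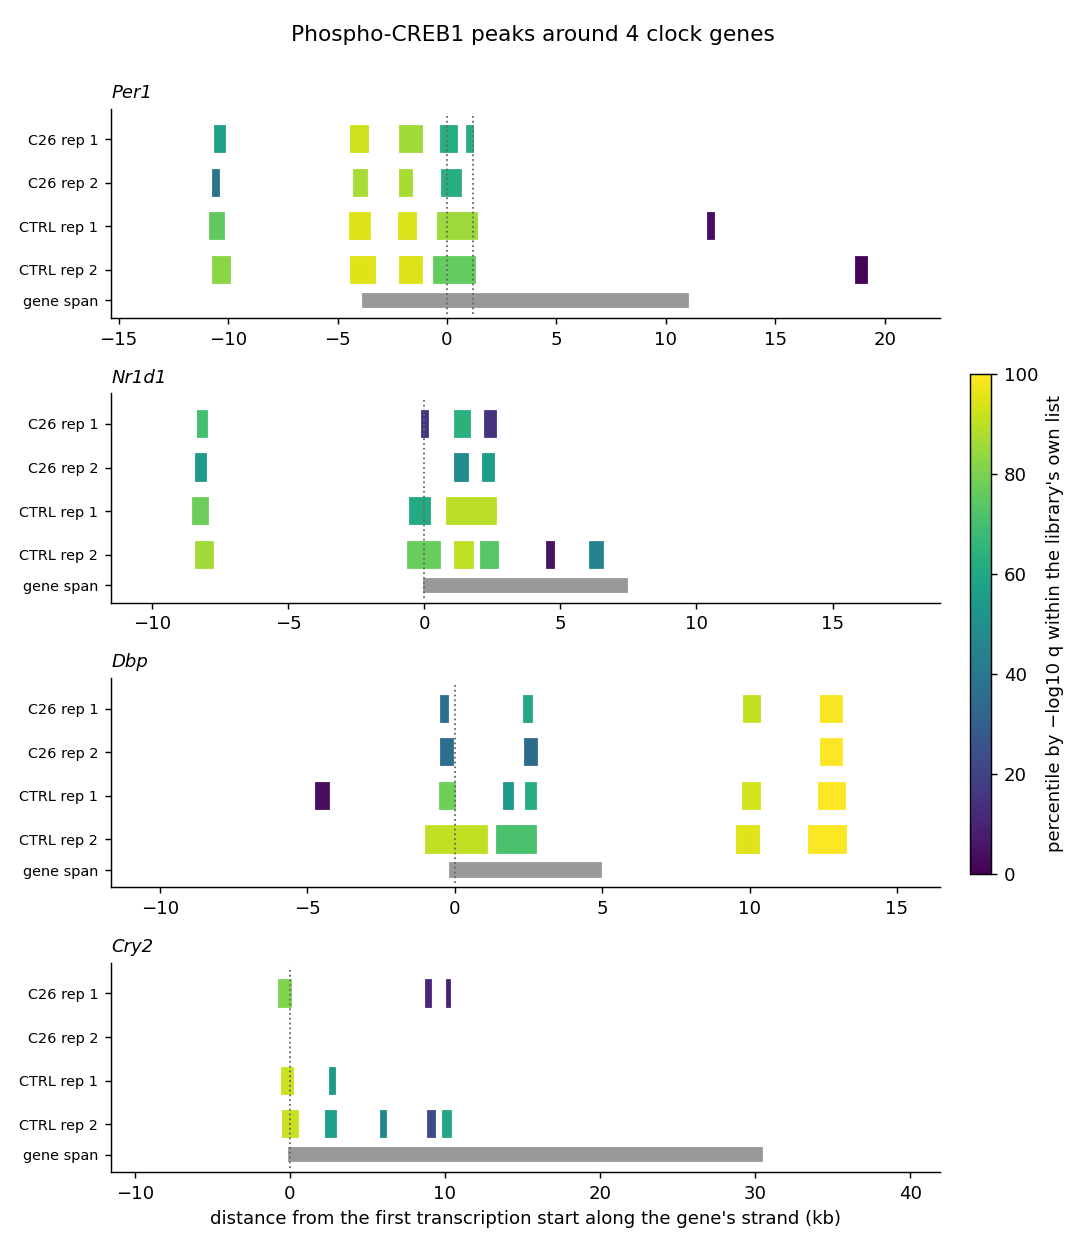
Peaks of each library (bars, C26 above CTRL) around Per1, Nr1d1, Dbp and Cry2, by distance in kb from the first listed start along the strand of the gene, colored by percentile within the library's own list. Dotted lines mark listed starts and grey bars the gene span. At Per1 the peaks about 4 kb before the start are among the strongest shown in every library, and at Cry2 the row of C26 replicate 2 is empty.

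Per2, a PER repressor with its own light and cAMP response, had 1 region bound in all 4 libraries, at the upper end of its span (chromosome 1, 91459014 to 91459991). Summits lay between −78 and 203 bp of that end. Enrichment was 8.49- and 8.65-fold in C26 replicates 1 and 2 and 9.73- and 13.7-fold in CTRL replicates 1 and 2. The percentiles were 81.7 and 66.9 in the C26 lists and 75.9 and 81.2 in the CTRL lists. Of its 6 other regions none was bound in all libraries, and 4 were seen in a single library at percentiles from 2.86 to 24.1. One of these, in CTRL replicate 2, lay 884 bp from an end of the long noncoding RNA gene Gm35591. One of the 2 CTRL-only regions lay past the other end of Per2 (chromosome 1, 91412755 to 91413743), 76 to 144 bp from a listed start of Hes6, a bHLH gene. Its enrichment in CTRL replicates 1 and 2 was low, at 3.48- and 4.27-fold.

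Per3, the remaining PER gene, had a single region bound in all libraries, at its start (chromosome 4, 151044135 to 151045143). Enrichment was 6.60- and 7.07-fold in C26 replicates 1 and 2 and 11.9- and 11.3-fold in CTRL replicates 1 and 2, at percentiles 60.5 and 51.4 (C26) and 76.9 and 74.1 (CTRL). Its summits lay 134 to 202 bp before the start, within 68 bp of each other. This stretch holds the only D-boxes found at a clock gene start here, 2 copies of TTATGTAA beginning 205 and 158 bases before the start, and neither TGACG nor CGTCA. The region is shared with the predicted gene Gm38529, whose lower end lay 6 to 54 bp from the summits.

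The CRY genes, which encode the partners of the PER proteins in repression, differed in how their start peaks ranked. Cry2 had one of the strongest start peaks of the set (chromosome 2, 92433511 to 92434788), with 6.93-fold enrichment in C26 replicate 1, no peak in C26 replicate 2, and 19.1- and 22.9-fold in CTRL replicates 1 and 2. It stood at percentile 81.2 in C26 replicate 1 and at 92.0 and 91.6 in the CTRL lists, second among the clock genes in both CTRL lists. The summits lay 131 to 206 bp before the start, and CGTCA begins 209 bases before it.

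C26 replicate 2 had no peak at all in the Cry2 window, although 8 of the 10 clock genes had one in that library (background 22.8%). Inside Cry2, C26 replicate 1 had 2 further peaks, CTRL replicate 1 had 1 and CTRL replicate 2 had 4. The second CTRL-only region lay 2740 to 2766 bp after the start (chromosome 2, 92431092 to 92431720). Its enrichment was 7.27-fold in CTRL replicate 1 and 7.83-fold in CTRL replicate 2. It is 979 to 1005 bp from an end of the long noncoding RNA gene D930015M05Rik, which overlaps Cry2.

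Cry1 had a start peak in every library (chromosome 10, 85184594 to 85185664), at 3.69- and 5.14-fold in C26 replicates 1 and 2 and 8.14- and 12.4-fold in CTRL replicates 1 and 2. It stood at percentiles 28.7 and 16.4 of the C26 lists and 74.7 and 79.3 of the CTRL lists. Among clock gene starts it was number 8 of 9 and number 7 of 7 in C26 replicates 1 and 2, and number 8 of 9 and number 6 of 10 in CTRL replicates 1 and 2. The summit positions ran from 290 bp before to 33 bp after the start. Its promoter holds TGACG 8 bases and an E-box 60 bases before the start. The other region in its window lay 81 to 131 bp from an end of Mterf2, a mitochondrial transcription factor gene, with 4.72-fold enrichment in C26 replicate 1, no peak in C26 replicate 2, and 4.42- and 4.88-fold in the CTRL libraries.

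The activating pair differed from each other. Arntl had a start peak in the upper part of all 4 lists (chromosome 7, 113206895 to 113208278), with 6.96- and 13.0-fold enrichment in C26 replicates 1 and 2 and 11.4- and 11.3-fold in CTRL replicates 1 and 2. Its percentiles were 80.2 and 85.6 in the C26 lists and 83.3 and 81.4 in the CTRL lists, and it was the strongest clock gene start of C26 replicate 2. The summits lay 144 to 200 bp before the nearer start, within 56 bp of each other, in a stretch that holds none of the motifs searched. A second region inside Arntl (chromosome 7, 113216269 to 113216738), 8924 to 9021 bp after the nearer start, was also bound in all libraries, at 4.45- and 5.54-fold in C26 replicates 1 and 2 and 9.42- and 7.80-fold in CTRL replicates 1 and 2.

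Clock, the partner of Arntl, had 1 peak in 1 library. CTRL replicate 2 had 4.67-fold enrichment at chromosome 5, 76303843 to 76304854, at percentile 18.4 of that list. Neither C26 library nor CTRL replicate 1 had a peak in the whole window, which makes Clock the clock gene with the fewest peaks. The summit lay 84 bp after the nearest of 3 listed starts and 168 bp from an end of Gm7467, a long noncoding RNA gene.

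Of the REV-ERB repressors, Nr1d2 had the strongest start peak of the clock genes in 3 of the 4 lists (chromosome 14, 18237964 to 18239605). Enrichment was 8.85- and 8.16-fold in C26 replicates 1 and 2 and 24.9- and 29.1-fold in CTRL replicates 1 and 2, at percentiles 84.5 and 61.6 (C26) and 93.9 and 94.5 (CTRL). The main summits lay after the start, 547 to 728 bp into the gene. C26 replicate 2 had an additional, weaker peak 30 bp after the start (5.24-fold), and the other libraries covered both positions with 1 peak of 1298 to 1642 bp. No motif searched for was found in the promoter stretch of Nr1d2, which does not reach the main summits.

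At Nr1d1 the binding inside the gene ranked above that at the start. A region 1461 to 2410 bp after the start (chromosome 11, 98772681 to 98774549) had 2 summits in C26 replicate 1, C26 replicate 2 and CTRL replicate 2 and 1 broad peak in CTRL replicate 1. The stronger summit of the 2 in C26 replicate 1 had 5.98-fold enrichment, and in C26 replicate 2 the stronger had 7.48-fold. In CTRL replicates 1 and 2 the strongest was 18.8- and 19.1-fold. These summits stood at percentiles 64.0 and 54.8 of the C26 lists and 89.7 and 90.0 of the CTRL lists, above the start peak in each list that had one.

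The start of Nr1d1 (chromosome 11, 98774813 to 98775961) had a peak of 3.14-fold in C26 replicate 1 and none in C26 replicate 2. In CTRL replicates 1 and 2 its enrichment was 6.87- and 10.2-fold. It was the lowest of the clock gene starts in C26 replicate 1 and CTRL replicate 1, at percentiles 15.4 and 60.9. Another region, bound in all libraries, lay 8072 to 8157 bp before the start (chromosome 11, 98783150 to 98783877), at 6.56- and 7.47-fold in C26 replicates 1 and 2 and 9.07- and 14.9-fold in CTRL replicates 1 and 2. It is 194 to 279 bp from the far end of Gm31862, a long noncoding RNA gene whose other end lies 22 to 98 bp from the start summits of Nr1d1. At the other end of Nr1d1, CTRL replicate 2 alone had a peak (6.09-fold) 74 bp from an end of Thra, a thyroid hormone receptor gene that overlaps it.

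Dbp, the D-box activator of clock output, had regions in all 4 libraries before its start and inside the gene. The start region (chromosome 7, 45704283 to 45706361) had summits 261 to 331 bp before the start, with 4.49- and 6.12-fold enrichment in C26 replicates 1 and 2 and 10.2- and 21.1-fold in CTRL replicates 1 and 2. Its percentiles were 36.4 and 35.3 in the C26 lists and 77.7 and 90.7 in the CTRL lists. Among clock gene starts it was number 7 of 9 and number 6 of 7 in C26 replicates 1 and 2, and number 5 of 9 and number 3 of 10 in CTRL replicates 1 and 2. The summits were 229 to 299 bp from the end of Car11, a carbonic anhydrase-related gene. The region inside Dbp (chromosome 7, 45706682 to 45708035) lay 1813 to 2588 bp after the start, with 6.27- and 6.12-fold enrichment in C26 replicates 1 and 2 and at most 7.22- and 9.36-fold in CTRL replicates 1 and 2.

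The strongest peaks in the Dbp window belonged to its neighbors. The region at the upper end of Sphk2, a sphingosine kinase gene (chromosome 7, 45717278 to 45718520, summits 1 to 18 bp from that end), had 35.7- and 51.7-fold enrichment in C26 replicates 1 and 2 and 118- and 104-fold in CTRL replicates 1 and 2. It lay in the top percent of every list, at percentiles 99.2 to 99.8. A region 138 to 148 bp from the start of Rpl18, a ribosomal protein gene, had peaks in all libraries but C26 replicate 2. These summits lay 5116 to 7817 bp past the Dbp span, although the span of Sphk2 overlaps that of Dbp.

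**Figure D4:**
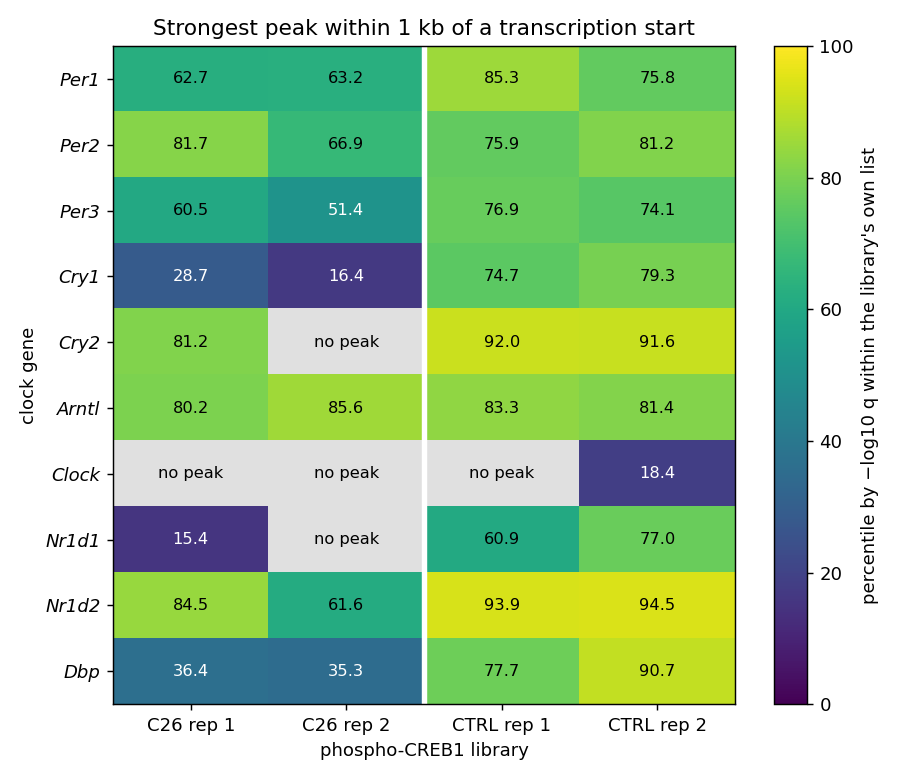
Percentile by −log10 q, within the library's own list, of the strongest peak within 1000 bp of a start of each clock gene (rows; either span end for Per2) in each library (columns, C26 left of CTRL), where grey marks no peak. Cry2 and Nr1d2 stand above 91 in both CTRL lists, Arntl stands between 80.2 and 85.6 in all lists, and Clock has a value in CTRL replicate 2 alone.

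In strength, the median start peak of the clock genes lay within the usual range of start peaks. The median percentile of the strongest start peak was 62.7 over 9 genes and 61.6 over 7 genes in C26 replicates 1 and 2, and 77.7 over 9 genes and 80.3 over 10 genes in CTRL replicates 1 and 2. For the other protein-coding genes with a start peak the medians were 60.5 and 60.2 in the C26 lists and 63.6 and 69.0 in the CTRL lists. In all lists the clock gene median fell inside the interquartile range of the other genes, whose upper quartiles were 81.8 and 81.6 (C26) and 83.0 and 85.6 (CTRL). Within CTRL muscle, Nr1d2 and then Cry2 stood above all other clock genes in both lists, while the ranges of Per1, Per2, Per3, Cry1, Arntl, Nr1d1 and Dbp over the 2 lists each overlapped that of at least 1 other.

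Most clock gene starts lacked the letters of the cAMP response element. The core TGACG or CGTCA was found in 4 of the 13 promoter stretches of the 9 clock genes with a listed start (2 at Per1, 1 each at Cry1 and Cry2), or 30.8%, compared with 23.6% of 21262 promoters of protein-coding genes. Among all promoters with a start peak in all 4 libraries the share was 58.9%, and among those with no start peak in any library 13.0%. Of the 6 clock gene stretches with a summit within 1000 bp in all 4 libraries, 1 held the core, that of Cry1, while those of Per3, Arntl (both starts), Nr1d2 and Dbp did not. Each start was scored alone in this count, and the 2 stretches of Arntl overlap. Per1 is not among the 6, because neither of its starts alone had a summit within 1000 bp in all 4 libraries. Both stretches of Per1 held the core. The full element TGACGTCA, which contains the core on both strands, was in 0 of the 13 stretches and in 2.23% of all promoters. The E-box CACGTG was in 2 of the 13 (Per1 first start and Cry1), against 7.84% of all promoters. The D-box (TTATGTAA, its complement TTACATAA, or TTACGTAA) was in 1 of the 13 (Per3), against 1.03%. A match of letters is not a binding site, and no match says only that the letters are not in these 300 bases. The stretches do not reach the upstream regions of Per1 or the summits inside Nr1d1, Nr1d2 and Dbp. Nor do they reach the start summits of Dbp, which lay 261 to 331 bp before its start. The bases under the Dbp summits and the main Nr1d2 summits were therefore not searched.

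Other genes of the clock also had phospho-CREB1 peaks at their starts. Of 17 further clock genes, 7 had a start peak in both C26 libraries and 12 in both CTRL libraries (backgrounds 13.4% and 33.6%). Start peaks were present in all 4 libraries at 6 of the 17 (background 13.1%). Nfil3, the D-box repressor, had 10.1- and 14.7-fold enrichment in C26 replicates 1 and 2 and 13.4- and 20.6-fold in CTRL replicates 1 and 2. Tef, a relative of Dbp, had 6.75- and 8.98-fold in C26 replicates 1 and 2 and 9.90- and 15.7-fold in CTRL replicates 1 and 2. Hlf, the other relative, had 9.17- and 7.42-fold (C26) and 16.3- and 21.9-fold (CTRL).

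The others bound in all 4 libraries act on PER and CRY turnover or clock proteins. Csnk1d, a kinase that phosphorylates PER proteins, had 7.26- and 8.84-fold enrichment in C26 replicates 1 and 2 and 14.2- and 26.2-fold in CTRL replicates 1 and 2. Btrc, a ubiquitin ligase subunit for PER, had 3.14- and 8.53-fold (C26) and 11.0- and 22.9-fold (CTRL). Usp2, a deubiquitinase, had 5.78- and 6.74-fold (C26) and 10.5- and 16.6-fold (CTRL). A start peak in both CTRL and neither C26 library was found at 1 of the 17, with a background of 7.81%. This was Fbxl21, a ubiquitin ligase subunit for CRY, at 7.02-fold in CTRL replicate 1 and 6.49-fold in CTRL replicate 2. Csnk1d and Btrc had no listed start and were assigned by either end of the span. Npas2, Arntl2 and Rorb had no start peak in any library.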

How the data were processed

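Phospho-CREB1 ChIP-seq and input chromatin of C26 and CTRL mouse muscle were sequenced paired-end. The submitters' processing notes name MACS2 2.1.4 and Bowtie2 2.3.5.1 beside SAMtools 1.6, FastQC 0.11.2 and Picard, and build mm10 (GRCm38). Per the labels, peaks were called per library against a numbered input at a q threshold of 0.05. What an additional filter in their names removed is not given in the sources used here. The deposited lists give each peak's fold enrichment over input and its −log10 q-value, both by the authors.

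From these lists, percentiles within a list were computed with Python 3.11.15 and pandas 2.3.3. Gene spans, transcription starts and promoter stretches of 300 bases came from RefSeq (GRCm38.p6). Starts were given for 17491 of 21883 protein-coding genes (79.9%), and either span end was used for the other 4392. Exon positions were not used here. The 10 clock genes, the 17 further genes and the markers were chosen with earlier results on these data known. All clock genes are described, and of the further genes those with a start peak in all 4 libraries or in both libraries of 1 group alone are named with values. Another gene of that list is not reported here. Peak assignment and merging were tested on simulated lists. Group comparison used an exact permutation test of 1 value per library. Alternatives changed the threshold, list length, windows, overlap rule and libraries.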

Additional observations from a re-analysis of the deposited data

How the results depend on the processing

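Of 87 recomputed values, 74 kept their direction or, for counts, stayed within 1.5 times of the reported count, 12 moved and 1 reversed. Median percentiles were judged by another rule, under which a shift had to stay below the SD of the 2 replicate medians of the group. By that rule all medians ranked by fold enrichment, given below, counted as moved, small shifts included. Trimming each list to its 4051 strongest peaks left 0 CTRL-only and 1 C26-only region (inside Dbp, where the CTRL peaks did not pass the trimming), and 2 genes with at least 2 regions in all libraries. A window of 20000 bp, which takes in more regions, gave 4 CTRL-only regions. The number of regions in that window is not given here, and 15.7% of all regions were CTRL-only. Leaving out 1 library gave 2 to 11 CTRL-only and 0 to 1 C26-only regions, with the backgrounds given above. The difference in peaks per library stayed below 0 in every alternative that counted peaks, from −14.5 (20000 bp) to −0.5 (trimmed lists). It reversed to 0.153 percentage points, higher in C26, as a share of each list. No p was below 0.333. The number of genes with a start peak in both libraries ran from 5 to 8 in C26 and from 8 to 9 in CTRL muscle. The shares of all genes under the changed thresholds, list lengths and windows are not given here. With 1 library of a group left out, the other alone gave up to 9 in C26 (replicate 1) and up to 10 in CTRL muscle (replicate 2). With the replicate number as a block, the difference was −8 (exact sign-flip p = 1), and the labels do not say that a number pairs the libraries. Ranked by fold enrichment in place of −log10 q, the median percentiles of the start peaks were 65.3 and 62.5 (C26) and 80.2 and 76.7 (CTRL). Read depth is unknown, so whether missing peaks follow depth was not tested.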
